A study of Mus musculus with 8 samples.

Results

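Phosphate reabsorption and vitamin D activation in the kidney rest on a small set of genes, 10 of which were followed in renal cortex of mice without SPAK and of wild-type (WT) littermates. They were taken by name: the sodium-phosphate cotransporter genes Slc34a1, Slc34a3, Slc20a1 and Slc20a2, the vitamin D enzyme genes Cyp27b1 and Cyp24a1, the vitamin D receptor gene Vdr, and Kl, Pth1r and Fgfr1, which encode Klotho and receptors for hormones that control phosphate. Of these 10 genes, 9 had a probe set annotated with that symbol alone, among 19938 genes measured, and Cyp24a1 is not analysed here. SPAK is the kinase encoded by Stk39 that activates the NaCl cotransporter of the distal convoluted tubule. All animals were male C57Bl6J mice of 10 weeks on feed with 0.32% NaCl and 1% KCl, and the labels name 4 littermate SPAK (Stk39) KO mice (SPAK KO 1 to 4) and 4 littermate wild types (WT 1 to 4), with 1 array each. How Stk39 was disrupted, and whether in all cells, is not in the labels, which number each array as a separate mouse. The study looked for genes that compensate for salt loss in the SPAK KO.

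The kidney recovers most filtered phosphate in the proximal tubule, through sodium-coupled transporters in the brush border. Parathyroid hormone, acting through the receptor encoded by Pth1r, and FGF23, acting through FGF receptors together with Klotho, both remove these transporters from the membrane. The same hormones set vitamin D activation: parathyroid hormone raises Cyp27b1, whose enzyme makes the active hormone calcitriol in proximal tubule cells, while FGF23 and calcitriol itself lower it.

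The values are on a log2 scale and come from RMA, a method that corrects background, brings arrays to a common distribution and combines each probe set's probes, so a difference of 1 is a doubling of signal. Stk39 itself was lower on all SPAK KO arrays, at 6.79 to 7.21 against 8.11 to 8.60 on WT arrays, a difference of −1.38 ± 0.11 (moderated SE). The arrays differed in how closely they agreed. Over 6297 genes whose mean exceeded 8, a gap of over 0.4 was seen for 1 to 10 genes in each of the 6 SPAK KO pairs and for 3 genes in the pair WT 2 and WT 3, but for 119 to 228 genes in the 5 other WT pairs. WT 2 and WT 3 were therefore counted as 1 sample in each WT mean ± SD (n = 3), and SPAK KO levels are given array by array with no SD between animals. Between a WT and a SPAK KO array the count was 131 to 393 genes, a range that overlaps that of the 5 other WT pairs. The p-values come from limma fitted to the 8 arrays over all genes, with Benjamini-Hochberg adjustment, and measure only the spread between these arrays.

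None of the 9 genes passed the test between genotypes: limma called 0 higher and 0 lower at an adjusted p under 0.05, where 2.08% of all genes passed. At an unadjusted p under 0.05, Fgfr1 was higher and Slc34a3 and Slc20a1 were lower, 3 of 9, where 19.1% of all genes reached that level. The median difference of the 9 genes was −0.0066, and that of all genes was −0.013. For the main phosphate transporter, Klotho and the parathyroid hormone receptor the values lay very close together on all arrays. Cyp27b1 was the opposite case, with a spread between WT arrays that few genes exceeded.

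**Figure D1:**
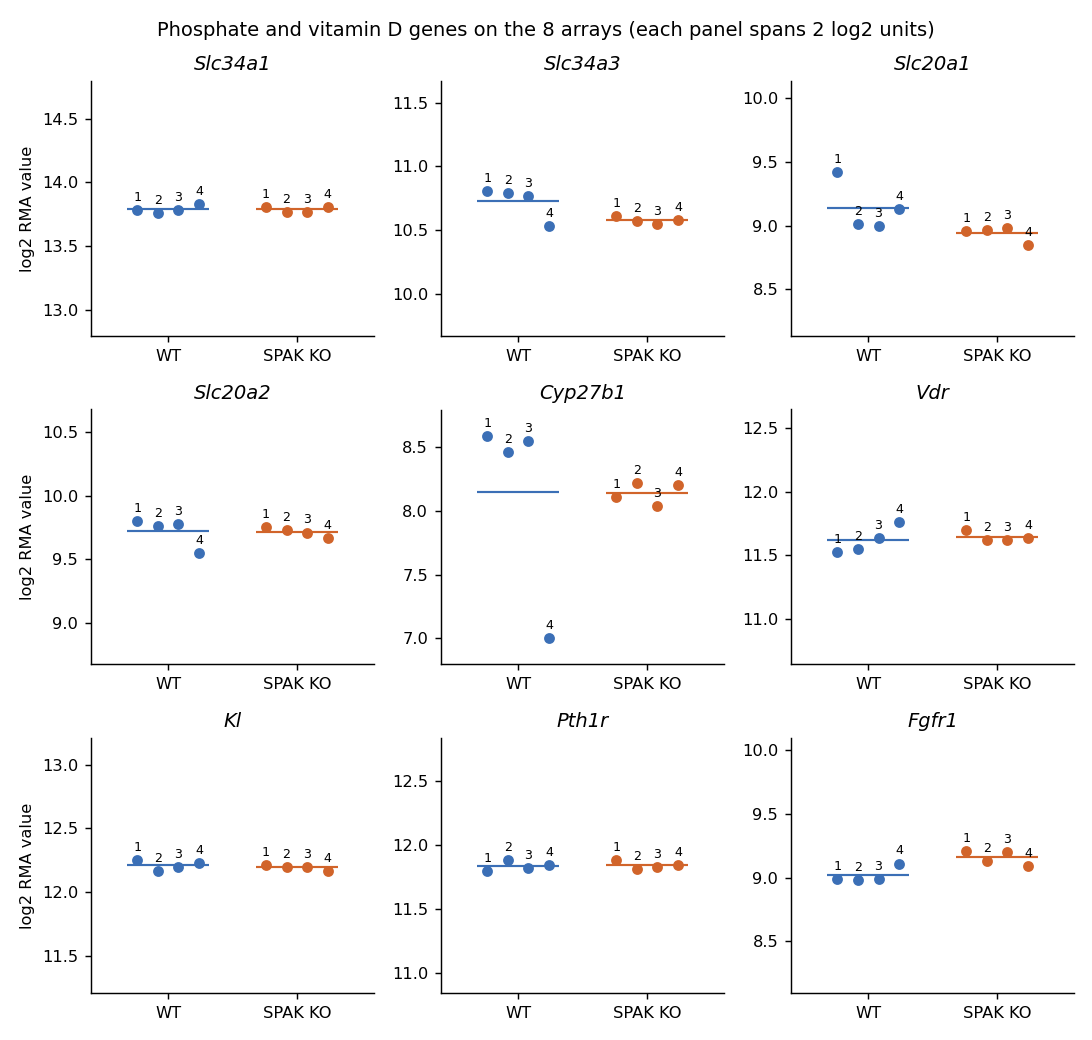
Log2 RMA values of the 9 measured genes, 1 panel per gene; each panel spans 2 log2 units, points are arrays marked with their number (WT blue, SPAK KO orange) and horizontal bars are means of 4 arrays. Cyp27b1 on WT 4, at 7.0, stands apart from all other arrays, while Slc34a1, Kl and Pth1r show almost no spread.

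Slc34a1 encodes NaPi-IIa, the main phosphate transporter of the proximal tubule brush border. Its values were 13.78, 13.76, 13.78 and 13.83 on WT 1 to 4 and 13.81, 13.77, 13.77 and 13.81 on SPAK KO 1 to 4 (probe set 10405448). The groups overlapped entirely, and only 0.015% of genes had a mean as high or higher. The difference was −0.0013 ± 0.044 with a 95% confidence interval of −0.098 to 0.096, or 0.934-fold to 1.07-fold. The highest value of any gene was 14.12, so Slc34a1 lay near the top of the measured range.

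Slc34a3 encodes NaPi-IIc, a second brush border transporter. The WT 1 to 4 values were 10.81, 10.79, 10.77 and 10.53, and the SPAK KO 1 to 4 values 10.61, 10.57, 10.55 and 10.58 (probe set 10480633). WT 1 to 3 lay above every SPAK KO array, and WT 4 lay below every one of them. The WT mean was 10.71 ± 0.15 (SD, n = 3, with WT 2 and WT 3 as 1 sample) and 10.73 over the 4 WT arrays. From the 8 arrays the difference was −0.15 ± 0.065 (limma adjusted p = 0.25), which did not pass. In the fit without WT 4 it was −0.21 ± 0.046 and passed (limma adjusted p = 0.0455), the lowest of a range that reached 0.9998 over the 20 alternative settings.

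Slc20a1 and Slc20a2 encode PiT transporters, which most cells use to take up phosphate. Slc20a1 gave 9.42, 9.01, 9.0 and 9.13 for WT 1 to 4 and 8.96, 8.97, 8.98 and 8.85 for SPAK KO 1 to 4 (probe set 10475990). Here WT 1 was the high array, and the groups did not overlap, although WT 3 lay only just above SPAK KO 3; it was the only member without overlap, where 5.71% of all genes had SPAK KO arrays wholly below WT and 6.9% wholly above. The difference was −0.20 ± 0.090 (limma adjusted p = 0.259), and −0.11 without WT 1. Slc20a2 gave 9.80, 9.76, 9.78 and 9.55 in WT and 9.75, 9.73, 9.71 and 9.67 in SPAK KO (probe set 10570837). As with Slc34a3, WT 4 was the lowest of all arrays, and the difference of −0.0089 ± 0.062 (95% confidence interval −0.15 to 0.13) did not pass.

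Pth1r, the receptor through which parathyroid hormone lowers phosphate reabsorption, gave 11.80, 11.88, 11.82 and 11.84 in WT and 11.88, 11.81, 11.83 and 11.84 in SPAK KO (probe set 10597239). The arrays of both genotypes were interleaved, with a difference of 0.0024 ± 0.045 (95% confidence interval −0.097 to 0.10). Kl encodes Klotho, the co-receptor that lets FGF receptors bind FGF23 and that distal tubule cells make in the largest amounts. Its values were 12.25, 12.17, 12.20 and 12.23 in WT and 12.21, 12.20, 12.20 and 12.17 in SPAK KO (probe set 10527870). The difference of −0.018 ± 0.044 (95% confidence interval −0.12 to 0.080) did not pass. Beside this, 2 of 6 distal tubule markers were lower, Pvalb at −1.30 ± 0.088 and Trpm6 at −0.63 ± 0.099, and the mean over the 6 markers was 9.22 to 9.31 on WT and 8.85 to 8.86 on SPAK KO arrays. The 4 other markers gave −0.21 to −0.096 and did not pass, and the median over the 6 was −0.17. The part of these markers in the Kl values was not tested. In RNA from whole cortex, fewer cells of a type and less RNA per cell cannot be told apart.

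Fgfr1, an FGF receptor that binds FGF23 together with Klotho, read 8.99, 8.98, 8.99 and 9.11 in WT and 9.21, 9.13, 9.20 and 9.09 in SPAK KO (probe set 10570982). WT 1 to 3 lay below all SPAK KO arrays, and WT 4 lay just above SPAK KO 4. The difference was 0.14 ± 0.053, or 1.1-fold, and did not pass (limma adjusted p = 0.192), nor did it pass in any of the 20 alternative settings, where the lowest adjusted p was 0.0717. Vdr, the nuclear receptor for calcitriol, read 11.53, 11.55, 11.64 and 11.76 in WT and 11.70, 11.62, 11.62 and 11.64 in SPAK KO (probe set 10432032). The SPAK KO arrays lay inside the WT range, with WT 4 the highest, and the difference was 0.027 ± 0.060 (95% confidence interval −0.11 to 0.16).

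**Figure D2:**
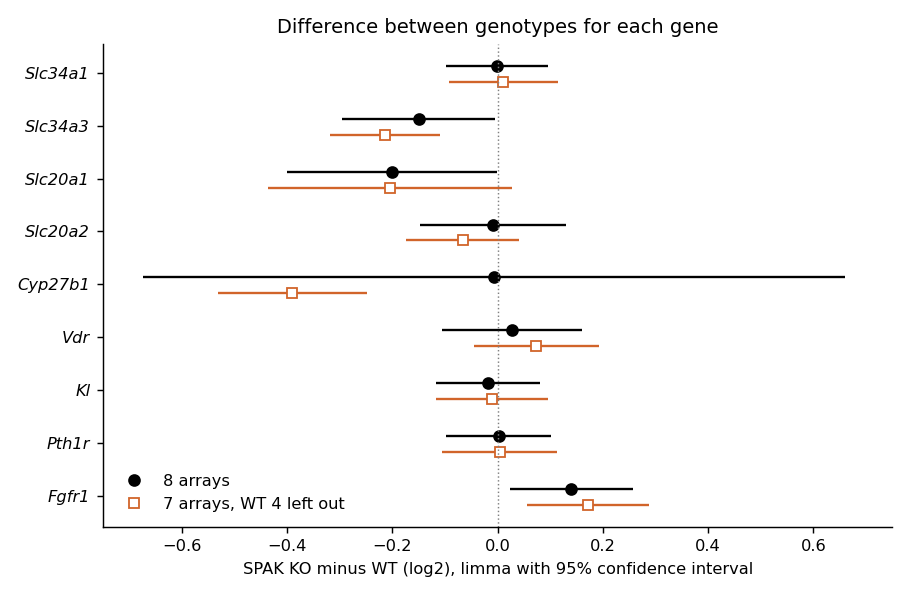
SPAK KO minus WT on the log2 scale for each gene with limma's 95% confidence interval, from all 8 arrays (black circles) and with WT 4 left out (open orange squares). The interval of Cyp27b1 runs from −0.67 to 0.66 with all arrays and from −0.53 to −0.25 without WT 4; those of Slc34a1, Kl and Pth1r are narrow around 0 in both fits.

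Cyp27b1 was the member with the widest spread. It read 8.59, 8.46, 8.55 and 7.0 on WT 1 to 4 and 8.11, 8.22, 8.04 and 8.20 on SPAK KO 1 to 4 (probe set 10366803). WT 1 to 3 formed a tight upper set, the SPAK KO arrays lay together below it, and WT 4 lay more than 1 log2 unit below all of them. The WT mean was 8.03 ± 0.90 (SD, n = 3, with WT 2 and WT 3 as 1 sample) and 8.15 over the 4 WT arrays. From the 8 arrays the difference between genotypes was −0.0066 ± 0.30 (limma adjusted p = 0.992), with a 95% confidence interval of 0.627-fold to 1.58-fold. With WT 2 and WT 3 averaged it was 0.11 ± 0.32. The arrays thus did not fix the direction of a difference in this gene.

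The SD over the 4 WT arrays was 0.769, against a median of 0.101 over all genes, and only 12 of 19938 genes had a larger one. Among the 2821 genes whose mean lay within 0.5 of that of Cyp27b1, its WT SD ranked 5 from the top. From the lowest to the highest WT array the signal differed 3.02-fold. Over the SPAK KO arrays it differed 1.14-fold and the SD was 0.0838, with a median of 0.0772 over all genes. The labels number these arrays as separate mice, but they agree so closely over all genes that their spread cannot be taken as one between animals, and it is not compared with that of WT. Without WT 4, the WT SD was 0.0653. The 8 other members were far less variable in WT, with SDs from 0.0271 for Slc34a1 to 0.199 for Slc20a1, and 4 of them, Slc34a1, Kl, Pth1r and Fgfr1, lay below the median of all genes.

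Leaving out WT 4 made the difference of Cyp27b1 −0.39 ± 0.062, and limma then called it lower (adjusted p = 0.0147, in a range of 0.0147 to 0.9998 over the 20 settings). Leaving out WT 1, WT 2 or WT 3 instead gave 0.14, 0.098 and 0.13, none of which passed. In the fit without WT 4, Cyp27b1 and Slc34a3 were the 2 members called, both lower, where 1.09% of all genes were called lower and 2.04% higher. That fit holds WT 1 and the closely agreeing WT 2 and WT 3, and the 4 closely agreeing SPAK KO arrays. Its p-values treat those arrays as separate samples, and it was singled out of 8 such fits with the low WT 4 value known. Nothing in the labels sets WT 4 apart, so that fit does not replace the one with 8 arrays. The direction of a Cyp27b1 difference was not fixed.

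**Figure D3:**
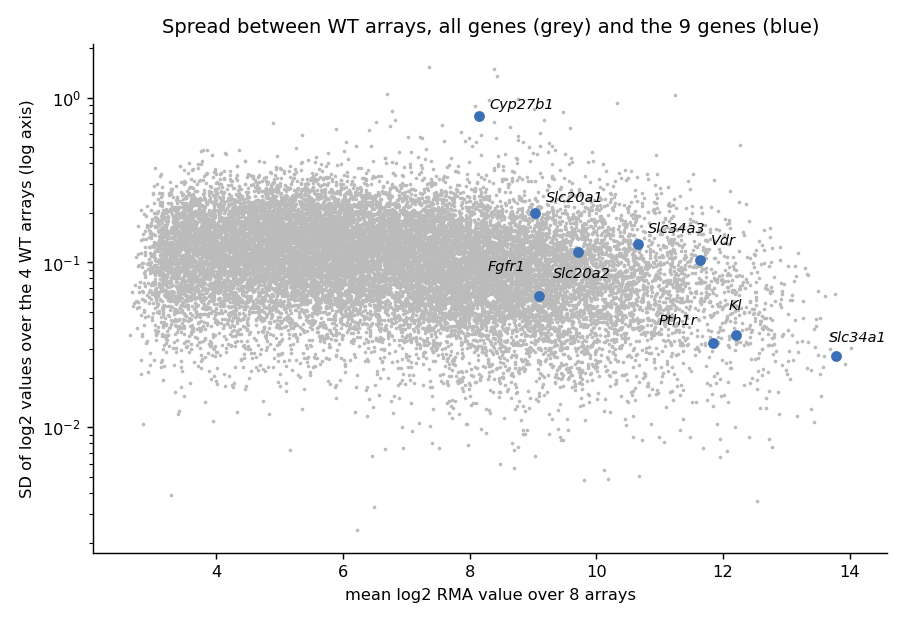
SD of the log2 values over the 4 WT arrays (log axis) against the mean log2 value over all 8 arrays, for every gene (grey) and the 9 genes (blue). Cyp27b1, at an SD of 0.769, lies at the upper edge of the cloud, and Slc34a1, Kl and Pth1r lie low in it.

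On WT 4 several members departed from the other WT arrays at once. Cyp27b1, Slc34a3 and Slc20a2 were lower there than the mean of WT 1 to 3 by more than 0.2, 3 of 9 members, where 8.94% of all genes were. No member was higher by that much, where 7.18% of all genes were. For Cyp27b1 the shortfall of WT 4 was 2.90-fold, and 2 of all genes had a larger one. By this count WT 4 was not the most divergent WT array. WT 1 differed from the other WT arrays by more than 0.2 in more genes, 9.22% lower and 13.5% higher. In the pairwise gene counts given earlier, WT 4 was the WT array closest to the SPAK KO arrays. It differed from SPAK KO arrays in 131 to 167 genes and from other WT arrays in 119 to 217. For WT 1 these counts were 278 to 393 and 212 to 228. Against SPAK KO arrays, WT 2 differed in 190 to 247 genes and WT 3 in 168 to 192. Leaving out WT 4 also gave the most limma calls over all genes, 407 higher and 218 lower, against 290 and 141 without WT 1. The proximal tubule markers, 12 genes of the cells that make Cyp27b1 and Slc34a3, had a mean of 12.41 on WT 4, inside the 12.39 to 12.43 of all WT arrays, with 12.47 to 12.48 on SPAK KO arrays and 1 of the 12 (Aqp1, 0.34 ± 0.058) higher. The 8 markers of macrophages and other immune cells were of interest because macrophages can also express Cyp27b1. Their mean was 6.62 to 6.65 on the WT arrays, 6.65 on WT 4, and 6.52 to 6.61 on SPAK KO arrays. On WT 4, Adgre1, Csf1r and Cd14 were the lowest of the WT arrays (5.99, 8.30 and 5.64). Ptprc, Lyz2 and Cd79a were the highest there (6.79, 7.72 and 4.73), and Cd68 and Cd3e lay between. Between genotypes, 1 of the 8 (Cd3e, −0.31 ± 0.065, called in 1 of 8 fits with an array left out) was lower. The part of these and the proximal tubule markers in the Cyp27b1 values was not tested.

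The upstream sequences of Cyp27b1 and Slc34a3 are shown because these are the members whose call turned on WT 4. RefSeq (GRCm38.p6) gives a window for 7 of the 10 genes. The 250 bases before the start lie at chr10:127047996-127048245 on the plus strand for Cyp27b1 and at chr2:25234235-25234484 on the minus strand for Slc34a3, each written 5′ to 3′ along the gene. Capitals mark a CCAAT motif in Cyp27b1, here in reverse as ATTGG, and AGGTCA motifs, a half-site bound by nuclear receptors, in Slc34a3.
Cyp27b1: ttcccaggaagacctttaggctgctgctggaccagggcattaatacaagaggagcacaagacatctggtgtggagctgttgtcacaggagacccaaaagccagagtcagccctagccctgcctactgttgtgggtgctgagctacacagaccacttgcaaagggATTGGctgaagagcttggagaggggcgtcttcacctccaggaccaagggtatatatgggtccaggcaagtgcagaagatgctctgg
Slc34a3: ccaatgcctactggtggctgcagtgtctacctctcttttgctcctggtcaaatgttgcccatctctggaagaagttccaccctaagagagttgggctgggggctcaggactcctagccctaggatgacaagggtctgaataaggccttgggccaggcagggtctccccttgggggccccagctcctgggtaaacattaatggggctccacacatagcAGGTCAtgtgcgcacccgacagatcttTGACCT
The CCAAT match of Cyp27b1 begins 86 bases before the start, and 33.9% of all 32851 RefSeq windows of this length hold CCAAT on either strand. Slc34a3 has AGGTCA 33 bases before the start and its reverse complement TGACCT 6 bases before it, and 14.02% of windows hold at least 1. Slc34a3 also has CCAAT at the far end of its window, 250 bases before the start. TGACG, the core of the cAMP response element, was in neither window and in 17.8% of all. A motif match describes the letters only, and the arrays carry no measure of binding.

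The 5 named genes whose values ran closest to those of Cyp27b1 over the 8 arrays were Fthl17f, Bend4, Plk2, Tcfl5 and Slc5a1. Closeness is the root mean square difference after each gene is centred on its own mean, and it was 0.264 to 0.302 for these genes against a median of 0.482 over all 19937. Slc5a1, the sodium-glucose cotransporter of the late proximal tubule, read 9.64, 10.02, 9.91 and 9.13 in WT and 9.53, 9.54, 9.42 and 9.38 in SPAK KO. Plk2, a kinase of the polo family, read 6.75, 6.51, 6.71 and 6.02 in WT and 6.44, 6.43, 6.52 and 6.43 in SPAK KO. All 5 were lowest on WT 4, which is what the measure selects for. None of them spread as widely as Cyp27b1, with SDs over the WT arrays of 0.336 to 0.409.

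**Figure D4:**
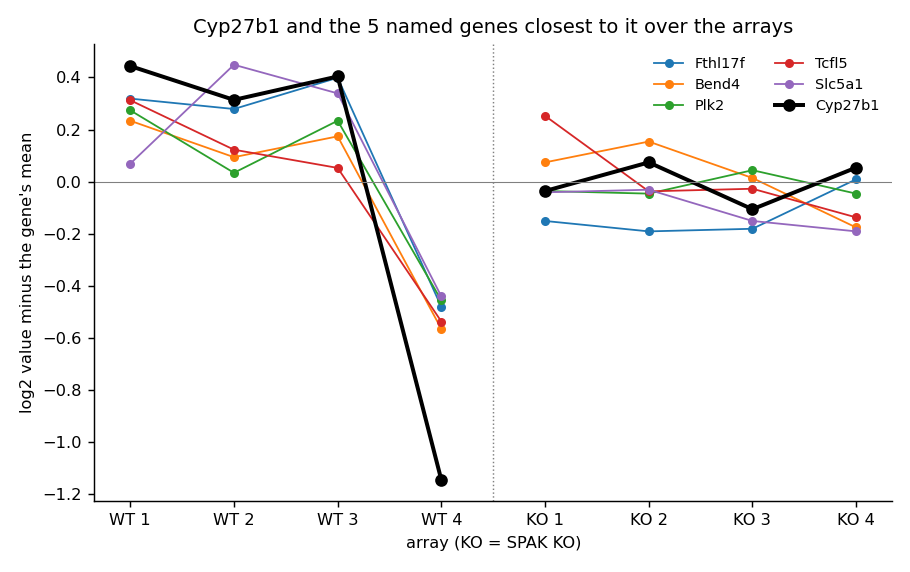
Log2 value minus the gene's own mean on each array for Cyp27b1 (black) and the 5 named genes closest to it (colours); lines join the arrays of a group only to show which points belong to a gene. Every gene is lowest on WT 4, and Cyp27b1 lies farthest below its mean there.

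Other genes of the pathway were taken from 5 lists with 64 genes, of which 55 were measured. Limma called 7 of the 55 higher and 0 lower, where 1.39% of all genes were called higher and 0.682% lower, and the other 48 did not pass. The lists were chosen with earlier results of these data known, so these shares are no test of the pathway. The median difference of the 55 genes was 0.028 against −0.013 for all genes. The number of calls was 9 without WT 4, 3 without WT 2, SPAK KO 1, SPAK KO 2 or SPAK KO 4, and 4 without SPAK KO 3. Over all genes these fits moved as well, from 278 higher and 136 lower to 106 to 407 higher and 50 to 218 lower. With WT 2 and WT 3 averaged to 1 sample, 5 of the 7 pathway genes were called, and with all arrays that agree counted once, 0 were, as over all genes.

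Among phosphate transporters and their partners 1 of 12 was higher. This was Slc34a2, which encodes NaPi-IIb, best known from gut and lung, at 6.22, 6.12, 6.02 and 6.20 in WT and 6.48, 6.36, 6.38 and 6.40 in SPAK KO. The groups did not overlap, and the difference was 0.26 ± 0.057, or 1.2-fold (limma adjusted p = 0.0470). With an array left out it was called in 2 of 8 fits, those without WT 1 and without WT 4, and it was not called with WT 2 and WT 3 averaged (limma adjusted p = 0.0976). The scaffold genes Slc9a3r1 and Pdzk1, which hold NaPi-IIa in the brush border, gave 0.027 ± 0.046 and 0.062 ± 0.051 and did not pass, and neither did Xpr1, the phosphate exporter, at −0.083 ± 0.066.

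In parathyroid hormone receptor signalling 2 of 10 genes were higher. Rgs2, which shortens G protein signals and is itself induced by cAMP among other stimuli, read 6.99, 6.88, 7.06 and 7.31 in WT and 7.80, 7.76, 7.91 and 7.87 in SPAK KO. Every SPAK KO array lay above every WT array. The difference of means was 0.78 ± 0.086, or 1.71-fold (limma adjusted p = 0.0027), and the call held whichever of the 8 arrays was left out. That check is limited, because the SPAK KO arrays agree closely, as do WT 2 and WT 3, and leaving out 1 of them changes little. Prkca, a protein kinase C gene, read 7.51, 7.41, 7.44 and 7.58 against 7.82, 7.82, 7.74 and 7.82, a difference of 0.32 ± 0.053 (limma adjusted p = 0.0157), and was called in 4 of those 8 fits, those without WT 1, WT 3, WT 4 or SPAK KO 3. Adcy6, an adenylyl cyclase, gave 0.24 ± 0.060 and did not pass (limma adjusted p = 0.0772).

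In FGF23 and Klotho signalling 2 of 12 genes were higher, both of which respond to ERK activity whatever the stimulus. Egr1, an early-response transcription factor, read 7.97, 7.90, 7.91 and 8.22 in WT and 8.96, 8.88, 8.91 and 8.91 in SPAK KO. The difference was 0.91 ± 0.072 or 1.89-fold (limma adjusted p = 5.6e-04). Dusp6, an ERK phosphatase, read 9.29, 9.25, 9.16 and 9.28 against 9.79, 9.71, 9.67 and 9.59, a difference of 0.45 ± 0.057 (limma adjusted p = 0.0046). Groups overlapped for neither gene, and both were called whichever of the 8 arrays was left out, a check with the limit given for Rgs2. The FGF receptor genes Fgfr2, Fgfr3 and Fgfr4 gave 0.37 ± 0.091, −0.15 ± 0.062 and −0.15 ± 0.071 and did not pass. Galnt3, which glycosylates FGF23, gave −0.25 ± 0.071 and did not pass (limma adjusted p = 0.108).

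Of 14 genes of vitamin D uptake, metabolism and receptor partners 0 were called by limma, with 2 at an unadjusted p under 0.05, Cyp27a1 and Rxrb. This was 14.29% of the list, below the 19.1% of all genes at that level. Cyp27a1, which can add the first hydroxyl group to vitamin D, read 9.91, 9.74, 9.70 and 9.78 in WT and 10.05, 10.01, 9.90 and 9.94 in SPAK KO, a difference of 0.19 ± 0.061 (limma adjusted p = 0.135). The groups overlapped by a single array pair, WT 1 and SPAK KO 3. Lrp2 and Cubn, the endocytic receptors that bring filtered vitamin D into proximal tubule cells, gave 0.046 ± 0.045 and 0.039 ± 0.050. Rxra and Rxrb, partners of the vitamin D receptor on DNA, gave 0.027 ± 0.046 and 0.12 ± 0.052.

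Of 7 calcium transport genes that respond to calcitriol 2 were higher. S100g, a calbindin that carries calcium through tubule cells, gave 12.36, 12.12, 12.21 and 12.13 in WT and 12.59, 12.54, 12.53 and 12.55 in SPAK KO, a difference of 0.35 ± 0.060 (limma adjusted p = 0.0169). Casr, the calcium-sensing receptor, gave 9.33, 9.28, 9.28 and 9.47 against 9.69, 9.68, 9.65 and 9.59, a difference of 0.31 ± 0.056 (limma adjusted p = 0.0224). Neither gene's groups overlapped. With an array left out, S100g was called in the 3 fits without WT 1, WT 3 or WT 4 and Casr in the 2 without WT 1 or WT 4. With WT 2 and WT 3 averaged, S100g was called and Casr was not (limma adjusted p = 0.0599). Trpv5, the calcium channel of the distal tubule, gave 0.14 ± 0.044 and did not pass, and Calb1 gave −0.21 ± 0.084 and did not pass. S100g, Trpv5 and Calb1 are expressed in the distal tubule, whose markers Pvalb and Trpm6 were lower, and the part of that in these values was not tested. Casr is best known from the thick ascending limb. Of 5 markers listed for the medulla, 2 belong to that segment in both cortex and medulla: Slc12a1 gave 0.24 ± 0.054 (limma adjusted p = 0.052) and Umod 0.098 ± 0.043 (limma adjusted p = 0.256), neither passing and both with SPAK KO arrays wholly above WT. Aqp2, the water channel of the collecting duct, was lower by this test at −0.29 ± 0.063 (limma adjusted p = 0.0447), a call kept in 1 of 8 fits with an array left out. Slc14a2 gave −0.21 ± 0.054 and Fxyd4 0.062 ± 0.072, and neither passed. The mean over the 5 markers was 9.29 to 9.31 on WT and 9.27 to 9.29 on SPAK KO arrays, and their part in the Casr values was not tested.

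**Figure D5:**
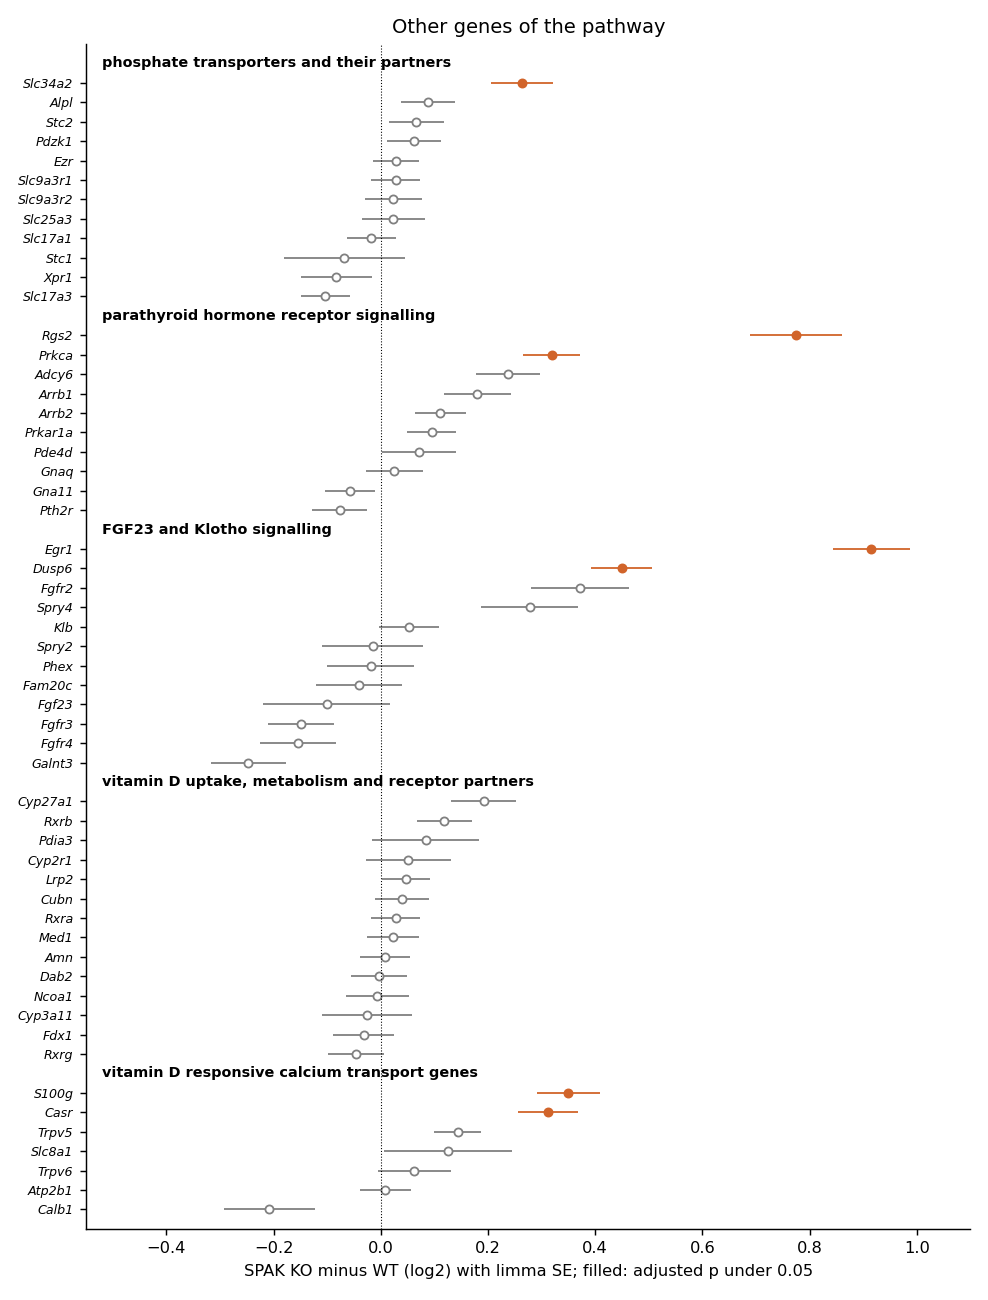
SPAK KO minus WT on the log2 scale with limma's SE for the 55 other measured pathway genes, ordered by size within 5 lists; filled orange points passed at an adjusted p under 0.05. The 7 called genes are all higher, led by Egr1 at 0.91 and Rgs2 at 0.78.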

How the data were processed

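Total RNA from dissected renal cortex, 6 µg per sample, was measured on 1-colour Affymetrix arrays of 8 labelled mice. The submitters' processing notes name RMA and Expression Console for the deposited log2 values, without a version or a genome build. These cover 35556 probe sets, with 0 values missing, and give no background level, so a dim probe set has no floor, and the number of separate samples limits the precision. Array medians were 6.13 to 6.19 in WT and 6.09 to 6.12 in SPAK KO.

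The platform annotation pairs 21789 probe sets with exactly 1 symbol, 1621 with several and 12146 with none. Probe sets with 1 symbol were used, and the brightest probe set by mean over all arrays stood for each of 19938 genes. Each member had 1 such probe set. No member lay within 20 Mb of Stk39 by RefSeq's GRCm38.p6 gene positions, although Slc34a3, Slc20a1 and Cyp24a1 share its chromosome.

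Genes were fitted with limma 3.58.1 (R 4.3.3; lmFit, eBayes without trend or robust options; statmod 1.5.0 for the robust alternative), genotype as the only term, and called at a Benjamini-Hochberg adjusted p under 0.05 over all genes. The script was tested on simulated data. The members and lists were chosen with earlier results of these data known. Genes named beyond the members were each list's called genes, or else its 2 with the smallest p, and the 5 closest to Cyp27b1; Slc9a3r1, Pdzk1, Xpr1, Adcy6, Fgfr2, Fgfr3, Fgfr4, Galnt3, Lrp2, Cubn, Rxra, Trpv5 and Calb1, and the marker genes given with values, were named for their roles after their values were seen. Titles number both groups 1 to 4, and whether a number pairs the samples could not be told from the values.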

Additional observations from a re-analysis of the deposited data

Results flagged for a closer look

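Of 34 groups of 4 arrays examined (the 9 members, Stk39 and the 7 called pathway genes in each genotype), 6 held an array far from the rest by Dixon's criterion, which chance meets in about 1 of 20 groups of independent arrays. That rate does not apply as it stands, since WT 2 and WT 3, and the SPAK KO arrays, agree closely and the same 8 arrays enter every group. WT 4 was that array in 4 of the 6. Cyp27b1 on WT 4 read 7.0, 1.46 below the next WT array, a gap that made up 0.919 of the group's range. Slc34a3 on WT 4 read 10.53, 0.24 below the next, and Slc20a2 on WT 4 read 9.55, 0.21 below the next. Fgfr1 on WT 4 read 9.11, 0.12 above the next. In SPAK KO, Slc20a1 on array 4 read 8.85, 0.11 below the next, and Prkca on array 3 read 7.74, 0.076 below the next.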

How the results depend on the processing

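Over 20 alternative settings, the 9 members gave 180 differences, of which 151 kept their direction and their side of the threshold. A call was gained by 2 (Cyp27b1 and Slc34a3 without WT 4, as given above), and 27 changed sign without passing. Of the 27, 8 were for Cyp27b1, whose interval is wide, and these reached 0.14 ± 0.32 without WT 1. The others, for Slc34a1, Slc20a2, Vdr, Kl and Pth1r, were near 0. With arrays centred on their median, Slc34a1, Slc20a2, Cyp27b1 and Kl turned positive at 0.057, 0.050, 0.052 and 0.041. Cyclic loess gave 0.0037 for Slc34a1 and −0.016 for Pth1r, and quantile normalization −0.0080 for Pth1r. With WT 2 and WT 3 averaged, or with all arrays that agree counted once, Slc20a2 gave 0.0078 and Cyp27b1 0.11 (± 0.59 in the second fit). Leaving out 1 array at a time gave −0.0105 to 0.0111 for Slc34a1, −0.21 to −0.12 for Slc34a3, −0.066 to 0.015 for Slc20a2, −0.39 to 0.14 for Cyp27b1, −0.0024 to 0.073 for Vdr and −0.0104 to 0.0168 for Pth1r, with 0 to 2 members lower and 0 higher. The WT SD of Cyp27b1 was 0.0653 to 0.907 in those fits and moved by over 1.5 times only without WT 4.

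The count of 7 higher pathway genes became 11 with arrays centred on their median, 4 with all probe sets fitted, 5 with WT 2 and WT 3 averaged (without Casr and Slc34a2) and 0 with arrays that agree counted once, and 3 to 9 when 1 array was left out. It was 3 without WT 2, SPAK KO 1, SPAK KO 2 or SPAK KO 4 and 4 without SPAK KO 3. Galnt3 alone was called lower, making 1 gene, with eBayes with trend, with trend and robust options, and without WT 1, so that count was 0 to 1 when 1 array was left out. All genes called were 278 higher and 136 lower, 673 and 88 after centring, and 0 and 0 with arrays that agree counted once (limma; 618 at an unadjusted p under 0.05), a fit with 1 SPAK KO sample assumed to vary like WT. As a replicate block, the array number left 4 pathway genes higher, 129 genes higher and 45 lower in all. Deviations of same-numbered arrays from their group means correlated at −0.050, 0.082, −0.13 and 0.13. Of the 4 WT arrays, 2 correlated best with the SPAK KO array of their own number. The SPAK KO arrays agree closely and deviate little, so these values cannot tell whether the numbers pair the samples. No signal over background comes with these values, so the detection of dim genes such as Slc34a2 could not be judged.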

Other observations

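The 12 genes whose WT SD exceeded that of Cyp27b1 were AI506816, Ces1g, Bcl6, Aldh1a7, Car3, Ciart, Cish, Slc16a14, Pdk4, Ccl28, Aldh1a1 and Mfsd2a, all taken after their values were seen. They differed from Cyp27b1 in that WT 1 to 3 also lay far apart. Their values over WT 1 to 3 ranged by 1.47 to 3.11, whereas those of Cyp27b1 ranged by 0.129. As for Cyp27b1, WT 4 was the lowest WT array for AI506816 (5.84), Bcl6 (6.33) and Pdk4 (6.92), but not for the others. Bcl6, a transcriptional repressor, read 7.32, 9.04, 9.06 and 6.33 on WT 1 to 4 and 8.87 to 9.03 on the SPAK KO arrays. Cish, an inhibitor of cytokine receptor signalling, ran the other way in WT, at 9.44, 7.62, 7.58 and 9.07, with 8.08 to 8.30 on the SPAK KO arrays. Ciart, a repressor of the circadian clock, read 7.29, 9.21, 9.30 and 8.0 in WT and 9.06 to 9.12 in SPAK KO. For these 3 genes WT 1 and WT 4 lay on the same side of WT 2 and WT 3, while for Cyp27b1 WT 1 lay with WT 2 and WT 3.

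Aldh1a1 and Aldh1a7, aldehyde dehydrogenase genes of close sequence whose probe sets were not checked for shared probes, gave 6.16, 7.88, 7.91 and 7.50, and 5.99, 8.26, 8.13 and 7.75, on WT 1 to 4. In both, WT 1 was the low array and lay within the SPAK KO values of 5.97 to 6.38 and 5.38 to 6.16.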
